A study of Mus musculus with 12 samples.

Results

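Dorsal skin of mice given mesenchymal stem cells (MSCs) by a split route was compared with dorsal skin of mice that received the same allergen and no cells. The comparison uses 6 of the 12 skin libraries of the series, 3 labelled scivMSC and 3 labelled DNCB, chosen by label alone. All groups were female BALB/c mice, 6 weeks old at purchase. The allergen was DNCB (dinitrochlorobenzene), a skin sensitizer used to produce dermatitis resembling atopic dermatitis, at 1% for sensitization and 0.5% for challenge between day 0 and day 27. The scivMSC mice also received 4 doses of 2000000 human umbilical cord MSCs between day 13 and day 25, each divided between a subcutaneous injection of 50 µL and a tail vein injection of 50 µL. In the scMSC group of the same series the whole dose went under the skin, and the control group received only the acetone and olive oil vehicle. Skin was collected on day 30, and each library is labelled as a separate replicate. The model is a chemically induced dermatitis treated with cells from another species, and the DNCB mice are described as given no injection of cells, so the effect of the injection itself cannot be told apart from that of the cells.

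The test covered 21890 genes, those whose mean FPKM (fragments per kilobase of transcript, scaled to the mapped fragments of the library) reached 0.1 in the series. Library depth was even, with 63877153 to 75134001 estimated counts. The tissue label was checked against its own markers. The keratinocyte gene Krt10 measured 5332, 6124 and 3472 FPKM in DNCB and 5264, 6219 and 3484 FPKM in scivMSC (values of 3 libraries are given in the order of replicates 1, 2 and 3 throughout). Within the scivMSC group, replicate 3 stood apart. Mitochondrial genes took 11.09% of its counts, against 4.604% and 5.032% in replicates 1 and 2, 3.999% to 5.329% in DNCB and 8.152% to 11.09% in control skin. The muscle gene Acta1 measured 2540.0, 1863 and 5609 FPKM in the 3 scivMSC libraries and 2167, 2407 and 3034 FPKM in DNCB. The collagen gene Col1a1 went the other way, at 191, 299.8 and 36.4 FPKM in scivMSC, with the lowest value in replicate 3, and 710.3, 810.3 and 584 FPKM in DNCB. The part of tissue sampling in the results was not tested, and counts without each library, replicate 3 included, stand beside most of the lists they change. In bulk skin, fewer cells of a type and less RNA per cell cannot be told apart.

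In allergen-inflamed skin, keratinocytes release cytokines and chemokines that recruit neutrophils, monocytes and mast cells, and the epidermis thickens, switches on stress keratins and small proline-rich proteins, and makes less of its late barrier proteins. The hair follicle and its sebaceous gland lie in the same piece of skin. Hair is built in the growth phase of the follicle from hair keratins and keratin-associated proteins, and the sebaceous gland makes waxes, cholesterol and long-chain fatty acids for the skin surface.

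Called genes had an adjusted p (Benjamini-Hochberg, edgeR's quasi-likelihood test) under 0.05 together with a log2 fold change above 1 or below -1. Fold changes are scivMSC minus DNCB on the log2 scale of normalized counts, given ± the standard error of the fit. Of the tested genes, 686 (3.13%) were higher and 509 (2.33%) lower in scivMSC, and the median over all tested genes was 0.02. The 3 libraries of each group did not overlap in FPKM for 1194 of the 1195 called genes. Without any test, 16.4% of all tested genes had every scivMSC library above every DNCB library, and 16.3% had every one below. Leaving out 1 library at a time lowered the counts to 325 and 217 without DNCB replicate 1, 280 and 216 without DNCB replicate 2, 384 and 270 without DNCB replicate 3, 290 and 186 without scivMSC replicate 1, and 387 and 232 without scivMSC replicate 3. Without scivMSC replicate 2 they rose to 785 higher and 657 lower. All 6 of these fits called 210 of the higher and 136 of the lower genes. With 3 libraries a group, the smallest p of an exact permutation test (two-sided) on 1 gene alone is 0.10, so each adjusted p below comes from the fit across all genes.

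**Figure D1:**
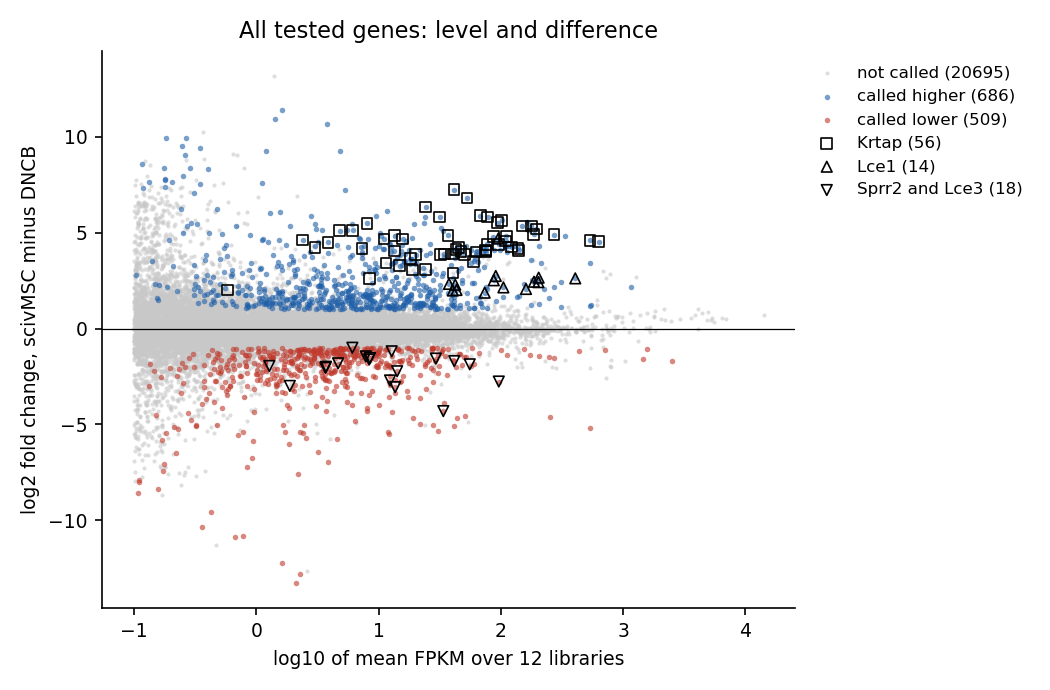
Each point is a tested gene, with its mean FPKM over 12 libraries (log10, horizontal) and its log2 fold change, scivMSC minus DNCB (vertical); blue points were called higher and red points lower. Open squares mark Krtap genes, upward triangles Lce1 genes and downward triangles Sprr2 and Lce3 genes, and the 14 Lce1 genes lie above 0 while the Sprr2 and Lce3 genes lie below it.

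Neutrophil genes had the lowest median log2 fold change of the gene lists. Of 19 tested genes on it, 12 were called lower and 0 higher, with a median log2 fold change of -4.30. The 3 scivMSC libraries lay below all DNCB libraries for 18, against 16.3% of all tested genes. S100a8 and S100a9, the subunits of calprotectin, are carried by neutrophils and also made by inflamed keratinocytes. S100a8 measured 906, 1053 and 788 FPKM in DNCB and 11.2, 67.2 and 31.7 FPKM in scivMSC (log2 fold change -4.64 ± 0.62, adjusted p = 0.00415). S100a9 measured 2089, 2236 and 1573 FPKM and 18.3, 97.7 and 47.5 FPKM (log2 fold change -5.17 ± 0.77, adjusted p = 0.00546). Both groups were far apart, and scivMSC replicate 2 was the highest and replicate 1 the lowest of the treated libraries for each gene. Ly6g, the surface antigen that defines mouse neutrophils, measured 2.67, 4.93 and 1.83 FPKM in DNCB and was listed at 0 in all 3 scivMSC libraries, at least 19.4-fold lower when a floor of 3 fragments in each library is set. The granulocyte growth factor receptor Csf3r measured 26.6, 25.8 and 31.5 FPKM in DNCB and 1.31, 2.44 and 0.541 FPKM in scivMSC (log2 fold change -4.30 ± 0.63, adjusted p = 0.00533). Lcn2, which encodes the iron-binding antimicrobial protein lipocalin, varied little within either group, at 25.9, 26.9 and 26.2 FPKM in DNCB and 2.14, 2.91 and 2.99 FPKM in scivMSC (log2 fold change -3.28 ± 0.28, adjusted p = 0.000914). These 5 genes passed in every fit that left out 1 library, though Ly6g did not pass by DESeq2 or with a replicate block. The count of lowered members was 8 without replicate 1 or 2 of DNCB or 1 or 3 of scivMSC. It was 9 without replicate 3 of DNCB and 11 without replicate 2 of scivMSC. The call was lost for Clec4d (highest adjusted p 0.132) and Cd177 (0.132) without any 1 library. For Retnlg (0.0827) it was lost without replicate 1 or 2 of DNCB or 1 or 3 of scivMSC. The granule genes Camp, Ltf and Ngp did not pass (adjusted p = 0.114, 0.202 and 0.187), and Il1f9, a keratinocyte cytokine, measured 54.4, 73.3 and 48.6 FPKM in DNCB and 50.5, 43.7 and 33 FPKM in scivMSC. Summed over the list, the level was 2797 to 3823 FPKM in DNCB and 105 to 262 FPKM in scivMSC, against 174 to 284 FPKM in control skin.

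Other receptors and mediators stood among the 15 largest decreases of called genes. Mrgpra2b and Mrgpra2a, near-identical G-protein-coupled receptors that can share reads, measured 9.16, 11 and 6.98 FPKM and 7.61, 6.59 and 5.11 FPKM in DNCB. Both were listed at 0 in every scivMSC library, at least 78.4-fold and 51.8-fold lower. Fpr1 and Fpr2, receptors for bacterial formyl peptides, fell by 6.45 ± 1.22 and 5.77 ± 0.85 on the log2 scale. Fpr2 measured 19.7, 18.7 and 13.6 FPKM in DNCB and 0.368, 0.339 and 0.208 FPKM in scivMSC, so the 3 treated libraries lay close together and far below DNCB. The same set held the inhibitory receptor Cd300lf (-5.42 ± 0.79), the neutrophil-attracting chemokine Cxcl5 (-6.95 ± 1.17), the collagenase Mmp8 (-6.02 ± 1.48), the itaconate-forming enzyme Acod1 (-5.48 ± 1.26), the granulocyte growth factor Csf3 (-5.45 ± 1.20), Cyp4f18 (-5.42 ± 1.07) and Trem3 (-5.39 ± 1.36). Osm, Ccl4, S100a9 and Spp1 completed it. Leaving out 1 library raised adjusted p above 0.05 for some of them (highest value in parentheses): Mrgpra2b (0.0517) without replicate 2 of DNCB, Mrgpra2a (0.0538) without replicate 1 or 2 of DNCB, Fpr1 (0.0573) without replicate 1 of scivMSC, Mmp8 (0.114) in all fits but the one without replicate 2 of scivMSC, Acod1 (0.0768) and Trem3 (0.107) without any 1 library, Csf3 (0.0739) without replicate 1, 2 or 3 of DNCB and Cyp4f18 (0.0564) without replicate 3 of scivMSC.

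**Figure D2:**
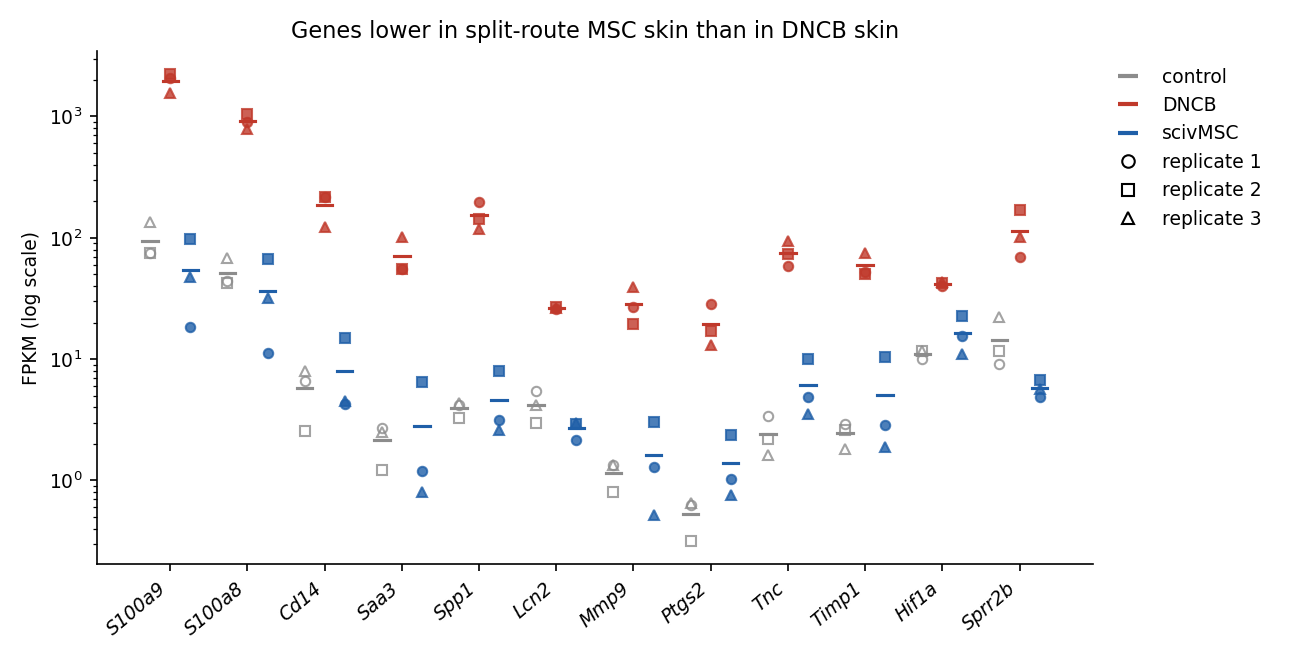
FPKM (log scale) of 12 genes called lower, with 1 point per library, coloured by group and shaped by replicate number, and a line at each group mean; open grey points are control skin. The red DNCB points lie above the blue scivMSC points for all 12 genes, and scivMSC replicate 2 (square) is the highest treated library for 11 of the 12.

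Alarm and repair genes were lower in part. Of 18 tested genes, 10 were called lower and 0 higher (median -1.70), and 8 to 11 were called with 1 library left out. Osm, a cytokine of activated neutrophils and macrophages that acts on keratinocytes, measured 13.9, 8.33 and 6.03 FPKM in DNCB and 0.326, 0.132 and 0.0628 FPKM in scivMSC (log2 fold change -5.72 ± 0.75, adjusted p = 0.00409). Saa3, an acute-phase protein, measured 55.7, 55.4 and 102 FPKM and 1.2, 6.48 and 0.797 FPKM (log2 fold change -4.67 ± 0.79, adjusted p = 0.00844). Spp1, the matrix cytokine osteopontin, measured 197, 143 and 119 FPKM and 3.13, 8.05 and 2.59 FPKM (log2 fold change -5.07 ± 0.66, adjusted p = 0.00398). No treated library approached the DNCB range for these genes, and replicate 2 was the highest for Saa3 and Spp1 and replicate 1 for Osm. The enzymes Nos2 and Arg1 were lower as well. Nos2, which makes nitric oxide, measured 4.9, 2.28 and 2.92 FPKM in DNCB and 0.0312, 0.142 and 0 FPKM in scivMSC (log2 fold change -5.84 ± 0.96, adjusted p = 0.0073). Arg1, which splits arginine, measured 39.1, 41.1 and 26.5 FPKM and 12.3, 10.1 and 8.58 FPKM (log2 fold change -1.78 ± 0.21, adjusted p = 0.00319). The hyaluronan synthase Has2 (-2.45 ± 0.42) and the hyaluronan receptor Cd44 (-1.63 ± 0.25) were also lower. Hmox1, which degrades heme, measured 109, 87.5 and 86.2 FPKM in DNCB and 37.3, 43.2 and 22.4 FPKM in scivMSC (log2 fold change -1.46 ± 0.38, adjusted p = 0.0415), and Ptx3, a soluble pattern receptor, 5.81, 5.87 and 5.97 FPKM and 0.241, 1.72 and 1.04 FPKM (log2 fold change -2.54 ± 0.55, adjusted p = 0.0215). Hmox1 and Ptx3 did not pass in every fit that left out 1 library. The call was lost for Hmox1 (0.149) without any 1 library and Ptx3 (0.0663) without replicate 1, 2 or 3 of DNCB or 3 of scivMSC, with the highest adjusted p in parentheses here and below.

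Some chemokine ligands of neutrophils and monocytes were lower, and the keratinocyte chemokine Ccl27a was higher. Of 25 tested ligands, 6 were called lower (Cxcl1, Cxcl5, Ccl2, Ccl3, Ccl4 and Ccl7) and 1 higher, with a median of -0.84 (-0.41 without scivMSC replicate 3 and -1.31 without replicate 2). Cxcl1, Cxcl2 and Cxcl3 attract neutrophils through Cxcr2 and lie in a cluster on chromosome 5. Their promoters are shown because all 3 hold the letters of a motif known for NF-kappaB, a transcription factor known to act on inflammatory genes. The last 100 bases before each transcription start are from RefSeq on GRCm38.p6, with matches to the NF-kappaB motif (GGGA and TTCC with any 2 bases between them), searched on both strands, in capitals.
Cxcl1, chr5:90891145-90891244, plus strand: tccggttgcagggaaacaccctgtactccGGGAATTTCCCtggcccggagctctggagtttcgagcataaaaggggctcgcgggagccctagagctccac
Cxcl2, chr5:90903799-90903898, plus strand: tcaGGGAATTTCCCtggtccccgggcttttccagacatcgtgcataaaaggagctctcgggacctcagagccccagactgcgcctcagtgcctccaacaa
Cxcl3, chr5:90786001-90786100, plus strand: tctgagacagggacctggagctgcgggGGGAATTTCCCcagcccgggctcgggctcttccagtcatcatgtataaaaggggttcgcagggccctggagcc
In each promoter the capitals are 2 overlapping matches, 1 on each strand. Of 19 listed chemokine genes with a promoter in the table, 5 (26.3%) held the motif within 250 bases before the start, against 1.18% of all 27025 promoters, 2.96% of 372 promoters of lowered genes and 0.815% of 491 promoters of raised genes. A match describes the letters of the window and not binding.

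Of these 3 genes, Cxcl1 passed the test. Cxcl1 measured 13.8, 3.79 and 8.93 FPKM in DNCB and 0.102, 1.52 and 0.964 FPKM in scivMSC (log2 fold change -3.33 ± 0.84, adjusted p = 0.0355). Cxcl2 measured 277, 182 and 158 FPKM and 0.147, 16.2 and 4.56 FPKM and did not pass (log2 fold change -4.89 ± 1.49, adjusted p = 0.0713). Cxcl3 measured 21.3, 12.6 and 12.1 FPKM and 0, 0.628 and 0.207 FPKM and did not pass either (log2 fold change -5.78 ± 1.66, adjusted p = 0.0581). The groups did not overlap for any of the 3, and the treated libraries spread widely, with replicate 1 lowest and replicate 2 highest each time. The monocyte attractants Ccl3 and Ccl4 were among the most abundant ligands in DNCB skin. Ccl4 measured 170.3, 92.8 and 89.8 FPKM in DNCB and 0.898, 6.11 and 1.53 FPKM in scivMSC (log2 fold change -5.37 ± 0.93, adjusted p = 0.00913). Ccl3 measured 136, 98.1 and 82.5 FPKM and 0.313, 8.06 and 1.49 FPKM (log2 fold change -5.01 ± 1.15, adjusted p = 0.0251). For both, replicate 2 was the highest treated library. Ccl2 (-2.34 ± 0.52) and Ccl7 (-2.77 ± 0.58) fell less. Ccl27a, which draws skin-homing T cells, rose from 1.87, 1.5 and 1.39 FPKM to 6.72, 4.71 and 10.8 FPKM (log2 fold change 2.24 ± 0.37, adjusted p = 0.0073), every treated library above DNCB. The B-cell attractant Cxcl13 measured 80.3, 43.5 and 1.96 FPKM in scivMSC and 2.22, 6.7 and 10.5 FPKM in DNCB and did not pass (adjusted p = 0.194), and treated replicate 3 lay below every DNCB library. The call was lost for Cxcl1 (0.111) and Ccl3 (0.0907) in all fits but the one without replicate 2 of scivMSC, Ccl2 (0.0951) without replicate 1 or 3 of DNCB or 1 or 3 of scivMSC and Ccl7 (0.0684) without replicate 1 of DNCB or 1 or 3 of scivMSC, and the count of lowered ligands was 2 without replicate 1 of DNCB or 1 of scivMSC, 3 without replicate 3 of DNCB or 3 of scivMSC, 4 without replicate 2 of DNCB and 6 without replicate 2 of scivMSC.

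Of 15 tested chemokine receptors, 6 were called lower and 0 higher, with a median of -1.59. Cxcr1, a receptor for neutrophil attractants, measured 1.33, 1.16 and 1.87 FPKM in DNCB and was listed at 0 in each scivMSC library, at least 14.1-fold lower. Cxcr2 measured 11, 10.3 and 12.7 FPKM in DNCB and 2.21, 2.72 and 1.77 FPKM in scivMSC (log2 fold change -2.34 ± 0.20, adjusted p = 0.000914). Ccr1, carried by monocytes and neutrophils, measured 23.1, 19.7 and 20.6 FPKM and 1.11, 2.14 and 0.808 FPKM (log2 fold change -3.97 ± 0.48, adjusted p = 0.00323). Every treated library lay well below the lowest DNCB library for both, with replicate 2 the highest of the 3. Cxcr4 (-1.44 ± 0.32) and the non-signalling receptor Ccrl2 (-3.34 ± 0.70) were also called. The call was lost for Cxcr4 (0.0888) and Ccrl2 (0.0714) without replicate 1 or 2 of DNCB or 1 or 3 of scivMSC. The count of lowered receptors was 3 without replicate 1 or 2 of DNCB or 1 or 3 of scivMSC, 5 without replicate 3 of DNCB and 6 without replicate 2 of scivMSC.

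Receptors that sense microbial products were lower in part. Of 20 tested Toll-like, lectin and Fc receptors and their adaptors, 7 were called lower and 0 higher (median -2.14). Cd14, the co-receptor that hands lipopolysaccharide to Tlr4, measured 216, 217 and 124 FPKM in DNCB and 4.24, 15 and 4.48 FPKM in scivMSC (log2 fold change -4.56 ± 0.59, adjusted p = 0.00398). Tlr2, which detects bacterial lipoproteins, measured 11.4, 10.1 and 9.11 FPKM and 1.46, 2.12 and 1.24 FPKM (log2 fold change -2.66 ± 0.28, adjusted p = 0.002), and its partner Tlr1 5.8, 6.13 and 5.08 FPKM and 0.224, 0.598 and 0.238 FPKM (log2 fold change -4.0 ± 0.53, adjusted p = 0.00415). The beta-glucan receptor Clec7a was lower by the same test (-2.99 ± 0.53), as were the other Tlr2 partner Tlr6 (-2.39 ± 0.53) and the signalling adaptors Fcer1g (-2.50 ± 0.52) and Tyrobp (-2.32 ± 0.57). Tlr4 itself measured 2.9, 3.26 and 4.06 FPKM in DNCB and 2.31, 2.3 and 0.751 FPKM in scivMSC and did not pass (adjusted p = 0.447). Of 18 macrophage markers, 2 were called lower (Cd14, counted above, and Arg1), and 14 lay wholly below DNCB, against 16.3% of all tested genes. DESeq2 called 9 of them lower, limma on log2(FPKM + 1) 6, and edgeR with the 6 libraries alone 5. Lyz2, the macrophage lysozyme, measured 452, 464 and 424 FPKM in DNCB and 167, 227 and 22.6 FPKM in scivMSC and did not pass (adjusted p = 0.178), with replicate 3 far below the other 2. The summed level of the list was 1049 to 1139 FPKM in DNCB and 85.8 to 528 FPKM in scivMSC, and its median moved from -1.52 to -1.04 without scivMSC replicate 3. Among the receptors, the call was lost for Tlr6 (0.0682) without replicate 1, 2 or 3 of DNCB or 1 of scivMSC, Fcer1g (0.0585) without replicate 1 or 2 of DNCB or 1 of scivMSC and Tyrobp (0.0968) in all fits but the one without replicate 2 of scivMSC, and the count was 4 without replicate 1 or 2 of DNCB or 1 of scivMSC, 5 without replicate 3 of DNCB, 6 without replicate 3 of scivMSC and 8 without replicate 2 of scivMSC.

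Interleukin-1 family and inflammasome genes were lower in part. Of 25 tested, 5 were called lower and 0 higher, with a median of -0.54. Il1b measured 208, 179 and 99.8 FPKM in DNCB and 1.31, 10.1 and 7.52 FPKM in scivMSC (log2 fold change -4.67 ± 1.11, adjusted p = 0.0292). The inflammasome sensor Nlrp3 measured 14.4, 10.2 and 8.02 FPKM and 0.288, 1.09 and 0.613 FPKM (log2 fold change -4.02 ± 0.96, adjusted p = 0.029). For both genes the 3 treated libraries stood below DNCB and replicate 1 was the lowest. The tissue alarm cytokine Il33 (-2.95 ± 0.60), the interleukin-18 receptor chain Il18rap (-2.78 ± 0.66) and the shared receptor chain Il1rap (-1.10 ± 0.21) were also lower. The epidermal member Il1f6 measured 27.6, 40 and 31.4 FPKM in DNCB and 29.2, 20.3 and 19.8 FPKM in scivMSC, with overlap. Il18 measured 24.3, 22.9 and 23.9 FPKM in scivMSC, above all 3 DNCB libraries at 14.1, 11.9 and 9.94 FPKM, and did not pass (adjusted p = 0.153). None of the 5 was called in every fit that left out 1 library, and the call was lost for Il1b (0.0909) and Nlrp3 (0.107) in all fits but the one without replicate 2 of scivMSC, Il33 (0.0729) without replicate 1 or 3 of scivMSC, Il18rap (0.0968) without any 1 library and Il1rap (0.0524) without replicate 1 of DNCB or 3 of scivMSC. The count of lowered members was 0 without replicate 3 of scivMSC, 1 without replicate 1 of DNCB or 1 of scivMSC, 2 without replicate 2 or 3 of DNCB and 5 without replicate 2 of scivMSC.

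Among 26 tested genes of type 2 cytokine, interleukin-17 and JAK-STAT signalling, 3 were called lower and 0 higher (median -0.43). Socs3, the feedback inhibitor induced by STAT3, measured 55.5, 29.4 and 43.1 FPKM in DNCB and 8.52, 16.5 and 8.88 FPKM in scivMSC (log2 fold change -1.92 ± 0.33, adjusted p = 0.00914) and passed in every fit that left out 1 library. Il4ra, the receptor chain shared by type 2 cytokines, measured 17.3, 16.4 and 26.7 FPKM and 7.24, 9.81 and 3.41 FPKM (log2 fold change -1.57 ± 0.35, adjusted p = 0.0229). Il6 measured 1.28, 0.322 and 0.856 FPKM in DNCB and was at the floor in scivMSC, at least 12.9-fold lower. The treated libraries lay below DNCB for the 3 genes. Il4ra and Il6 did not pass in most such fits, namely Il4ra (0.0789) in all fits but the one without replicate 2 of scivMSC and Il6 (0.133) without any 1 library, so that the count was 1 without replicate 1, 2 or 3 of DNCB or 1 or 3 of scivMSC and 3 without replicate 2 of scivMSC. In the list of itch and vascular mediators, 3 of 15 were lower, namely Mrgpra2a, Mrgpra2b and Ptgs2, and 2 were higher. Ptgs2, the inducible prostaglandin synthase, measured 28.2, 17 and 13.1 FPKM in DNCB and 1.04, 2.35 and 0.758 FPKM in scivMSC (log2 fold change -3.82 ± 0.52, adjusted p = 0.00415). The protease-activated receptor F2rl1 (1.17 ± 0.28) and the peptide Edn1 (1.23 ± 0.32), both known to take part in itch, were higher. Edn1 measured 8.32, 8.41 and 3.85 FPKM in scivMSC, so that replicate 3 lay close to the DNCB values of 2.69, 2.7 and 3.32 FPKM. The call was lost for F2rl1 (0.114) in all fits but the one without replicate 2 of scivMSC and Edn1 (0.131) in all fits but the one without replicate 3 of scivMSC, so that the count of raised members was 0 without replicate 1, 2 or 3 of DNCB or 1 of scivMSC and 1 without replicate 2 or 3 of scivMSC, and that of lowered members 1 without replicate 2 of DNCB, 2 without replicate 1 of DNCB, 3 without replicate 3 of DNCB or 1 of scivMSC, 4 without replicate 3 of scivMSC and 5 without replicate 2 of scivMSC. Hdc, the histamine-forming enzyme, was the 1 gene called among 12 mast cell and basophil markers, at 19.6, 20.3 and 12.5 FPKM in DNCB and 2.14, 3.46 and 0.876 FPKM in scivMSC (log2 fold change -3.03 ± 0.58, adjusted p = 0.0134). The call was lost for Hdc (0.0583) without replicate 1 of scivMSC. The summed level of those markers was 123 to 146 FPKM in DNCB, 111 and 124 FPKM in scivMSC replicates 1 and 2, and 21.1 FPKM in replicate 3.

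Proteases of matrix breakdown and their inhibitors fell, 6 of 17 lower and 0 higher (median -1.61). Mmp13, an interstitial collagenase, is shown with the 100 bases before its start because it holds TGACTCA, a motif known for AP-1, the factor formed by Fos and Jun proteins. Capitals mark the match to TGANTCA.
Mmp13, chr9:7272414-7272513, plus strand: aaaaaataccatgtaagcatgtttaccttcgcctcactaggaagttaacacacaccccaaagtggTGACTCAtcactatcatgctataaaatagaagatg
This motif stood in 4 of 11 promoters of the list (36.4%), 7.53% of lowered, 10.4% of raised and 6.85% of all promoters. In other lists it stood in 6 of 13 suprabasal (46.2%), 8 of 18 Sprr and Lce3 (44.4%) and 0 of 17 hair keratin promoters. Mmp13 measured 14.9, 9.67 and 15.6 FPKM in DNCB and 0.699, 2.15 and 0.166 FPKM in scivMSC (log2 fold change -3.76 ± 0.86, adjusted p = 0.025). The gelatinase Mmp9 measured 26.8, 19.4 and 39.6 FPKM and 1.29, 3.05 and 0.518 FPKM (log2 fold change -4.15 ± 0.55, adjusted p = 0.00415), and the metalloprotease inhibitor Timp1 52.7, 50 and 75.4 FPKM and 2.87, 10.5 and 1.9 FPKM (log2 fold change -3.56 ± 0.63, adjusted p = 0.00948). In each gene replicate 2 was the highest and replicate 3 the lowest treated library. The urokinase receptor Plaur was lower too (-3.45 ± 0.57). Mmp8 and Mmp13 did not pass in some of the fits that left out a library, namely Mmp8 (0.114) and Mmp13 (0.0991) in all fits but the one without replicate 2 of scivMSC. The count of lowered members was 4 without replicate 1, 2 or 3 of DNCB or 1 or 3 of scivMSC. It was 8 without replicate 2 of scivMSC, and 1 member was called higher without replicate 3 of scivMSC.

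For connective tissue the count depended on the tool. Of 15 fibroblast and collagen genes, 3 were called lower and 0 higher, with a median of -1.55 (-1.20 without scivMSC replicate 3). On that list 12 lay wholly below DNCB, against 16.3% of all tested genes. DESeq2 called 10 lower, limma 5 on log2(FPKM + 0.1) and 7 on log2(FPKM + 1), and edgeR with the 6 libraries alone 1. Tnc, the wound matrix protein tenascin, measured 58, 73.2 and 94.5 FPKM in DNCB and 4.88, 10 and 3.54 FPKM in scivMSC (log2 fold change -3.62 ± 0.44, adjusted p = 0.00321), and passed without any 1 library. Col5a1 (-2.06 ± 0.51) and Sparc (-1.54 ± 0.39) were the other called genes. Col3a1 measured 754, 748 and 729 FPKM and 207, 303 and 35.2 FPKM and did not pass (adjusted p = 0.0703). All treated libraries were below DNCB for it, and replicate 3 was much the lowest. The summed level of the list was 2886 to 3451 FPKM in DNCB and 1140.0, 1508 and 279 FPKM in the 3 scivMSC libraries. With 1 library left out, the count of lowered members was 1 without replicate 1, 2 or 3 of DNCB or 1 of scivMSC, 2 without replicate 3 of scivMSC and 5 without replicate 2 of scivMSC. Of 12 endothelial genes, 3 were called lower, Cdh5 (-1.17 ± 0.30), the leukocyte adhesion molecule Sele (-2.21 ± 0.57) and Icam1 (-1.30 ± 0.25), and the count was 0 without replicate 1 or 3 of scivMSC, 1 without replicate 1, 2 or 3 of DNCB and 2 without replicate 2 of scivMSC. The call was lost for Col5a1 (0.098) without replicate 1, 2 or 3 of DNCB or 1 of scivMSC, Sparc (0.111) and Cdh5 (0.105) in all fits but the one without replicate 2 of scivMSC, Sele (0.111) without any 1 library and Icam1 (0.0574) without replicate 1 or 3 of scivMSC.

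In the epidermis, the basal keratins Krt14 and Krt5 fell, and the stress keratins split by library. Krt14, which marks basal keratinocytes, measured 6324, 7186 and 5530.0 FPKM in DNCB and 1171, 3391 and 1275 FPKM in scivMSC (log2 fold change -1.71 ± 0.38, adjusted p = 0.0221). Its partner Krt5 measured 3259, 3014 and 2430.0 FPKM and 1193, 1777 and 1219 FPKM (log2 fold change -1.05 ± 0.22, adjusted p = 0.0197). Treated replicate 2 was the highest for both. With the laminin chain Lama3 (-1.08 ± 0.18), they were the 3 genes called lower of 10 basal genes, and the call was lost for Krt14 (0.0796) and Krt5 (0.0827) without replicate 1 or 2 of DNCB or 1 or 3 of scivMSC. The median of the 10 was -0.58, with 6 wholly below DNCB, 2 wholly above and a largest increase of 1.11. Of all tested genes, 16.3% lay wholly below and 16.4% wholly above. The count of lowered basal genes was 1 without replicate 1 or 2 of DNCB or 1 or 3 of scivMSC. It was 3 without replicate 3 of DNCB and 4 without replicate 2 of scivMSC. By DESeq2, and without scivMSC replicate 2, 1 basal gene was called higher. Krt6a, Krt6b and Krt16 are switched on in wounded and hyperproliferative epidermis, and Krt6a and Krt6b, of high sequence similarity, can share reads. Krt6a measured 2071, 2487 and 2258 FPKM in DNCB and 289, 1187 and 268 FPKM in scivMSC (log2 fold change -1.98 ± 0.56, adjusted p = 0.0563), and Krt16 measured 2041, 2625 and 2249 FPKM and 169.9, 1491 and 167 FPKM (log2 fold change -1.95 ± 0.79, adjusted p = 0.166). Every treated library was below DNCB for both genes, but replicate 2 lay several times above the other treated libraries, and neither gene passed. Without scivMSC replicate 2 they did (Krt6a -3.0, adjusted p = 0.00514; Krt16 -3.74, adjusted p = 0.00523), as did Krt6b (-4.63, adjusted p = 0.00113). Of 16 stress keratinocyte genes, 2 were called lower, the protease inhibitors Serpinb3a (-2.81 ± 0.64) and Serpinb3b (-1.03 ± 0.27), and 1 higher, the antimicrobial peptide S100a7a (1.77 ± 0.48). The count of lowered members was 0 without replicate 1, 2 or 3 of DNCB or 1 or 3 of scivMSC and 5 without replicate 2 of scivMSC, and the calls were lost for Serpinb3a (0.0904) and Serpinb3b (0.143) without any 1 library and S100a7a (0.154) in all fits but the one without replicate 2 of scivMSC.

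The small proline-rich proteins and the late cornified envelope proteins are cross-linked into the envelope of the dying keratinocyte, and their genes lie together on chromosome 3 (92215799 to 92993426, GRCm38). Within that span of 46 tested genes, 17 were higher and 6 lower. The lowered ones were Sprr2 genes. Sprr2b measured 69.7, 169.9 and 102 FPKM in DNCB and 4.84, 6.69 and 5.66 FPKM in scivMSC (log2 fold change -4.31 ± 0.40, adjusted p = 0.00118). Sprr2d measured 204, 329.9 and 271 FPKM and 34.1, 62.6 and 22.5 FPKM (log2 fold change -2.77 ± 0.42, adjusted p = 0.00581). Both were low in each treated library and passed in every fit that left out 1 library. Sprr2a1, Sprr2a2 and Sprr2a3, near-identical copies that can share reads, and Sprr2i were also lower (between -1.57 and -3.06), with the call lost for Sprr2a1 (0.149) and Sprr2i (0.104) in all fits but the one without replicate 2 of scivMSC, Sprr2a2 (0.152) without any 1 library and Sprr2a3 (0.066) without replicate 1 or 2 of DNCB or 1 or 3 of scivMSC. Lce3c, of the injury-induced late envelope genes, measured 27.3, 32.5 and 27.6 FPKM in DNCB and 2.7, 33 and 3.24 FPKM in scivMSC (log2 fold change -1.19 ± 0.80, adjusted p = 0.426). Treated replicate 2 stood at the DNCB level, while the other 2 lay far below, and the same held for Lce3d at 0.788, 20.5 and 1.89 FPKM against 20.2, 25.7 and 20.2 FPKM. Without that library Lce3c (-3.25, adjusted p = 0.00531), Lce3d (-3.98, adjusted p = 0.00603), Sprr1b (-3.49, adjusted p = 0.006) and Sprr2g (-3.98, adjusted p = 0.00688) passed. Over the 18 Sprr and Lce3 genes the count of lowered members was 6 with all libraries and 2 without replicate 1 or 2 of DNCB or 1 or 3 of scivMSC, 3 without replicate 3 of DNCB and 14 without replicate 2 of scivMSC.

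The Lce1 genes, a family chosen after its values were seen, moved the other way. They are expressed late in normal epidermal differentiation. All 14 tested members were called higher, with log2 fold changes of 1.87 to 4.69 (median 2.37), and 11 passed in every fit that left out 1 library. Lce1m measured 3.63, 1.45 and 2.52 FPKM in DNCB and 85.5, 51.2 and 58.7 FPKM in scivMSC (log2 fold change 4.69 ± 0.54, adjusted p = 0.00299). Lce1b measured 37.7, 47 and 42 FPKM and 327, 252 and 218 FPKM (log2 fold change 2.65 ± 0.32, adjusted p = 0.00323). All treated libraries lay several times above DNCB, and the members are similar enough to share reads. Other late barrier genes rose with them. Lor, the main protein of the cornified envelope, measured 291, 369.8 and 277 FPKM in DNCB and 1805, 1241 and 1189 FPKM in scivMSC (log2 fold change 2.18 ± 0.36, adjusted p = 0.00719), against 1167, 1907 and 2380.0 FPKM in control skin. Flg2, a filaggrin-family protein, measured 1.74, 1.94 and 1.36 FPKM and 25, 16.1 and 15.5 FPKM (log2 fold change 3.49 ± 0.70, adjusted p = 0.016). Flg itself measured 43.3, 43 and 32.9 FPKM in DNCB and 137, 117 and 92.5 FPKM in scivMSC, without overlap, and did not pass (adjusted p = 0.116). Krt77 is the exception in level. This keratin measured 782, 694 and 1030.0 FPKM in control skin, 1.45, 0.162 and 0.636 FPKM in DNCB and 10.6, 7.07 and 5.87 FPKM in scivMSC (log2 fold change 3.39 ± 0.79, adjusted p = 0.0274), so it rose and still stood far below every control library. Of 16 suprabasal genes, 3 were higher and 0 lower (median 0.52), the count of raised members was 1 without replicate 2 or 3 of DNCB or 1 of scivMSC, 2 without replicate 1 of DNCB or 3 of scivMSC and 3 without replicate 2 of scivMSC, and the call was lost for Flg2 (0.0643) without replicate 1, 2 or 3 of DNCB or 1 of scivMSC and Krt77 (0.0987) without replicate 2 or 3 of DNCB or 1 or 3 of scivMSC. Krt1 and Krt10, the main suprabasal keratins, were not called. Krt10 overlapped between the groups, as given above, and Krt1 measured 2243, 2658 and 1533 FPKM in DNCB and 2146, 2789 and 1388 FPKM in scivMSC.

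Claudins seal the tight junctions of the granular layer. Of 17 tight junction and desquamation genes, 5 were called higher and 0 lower (median 0.73). Cldn1 measured 23.9, 19.4 and 22 FPKM in DNCB and 58.6, 47.1 and 43.5 FPKM in scivMSC (log2 fold change 1.20 ± 0.19, adjusted p = 0.00618). Cldn23 measured 0.272, 0.376 and 0.362 FPKM and 3.4, 2.6 and 2.19 FPKM (log2 fold change 3.00 ± 0.30, adjusted p = 0.0018). Both groups were well separated. Cldn3 (2.67 ± 0.48), Cldn4 (1.60 ± 0.31) and Ocln (1.41 ± 0.35) were the other raised members, and the call was lost for Cldn4 (0.0586) without replicate 1 or 2 of DNCB or 1 of scivMSC and Ocln (0.111) in all fits but the one without replicate 1 of DNCB. The count of raised members was 3 without replicate 2 of DNCB or 1 of scivMSC, 4 without replicate 1 or 3 of DNCB or 3 of scivMSC and 5 without replicate 2 of scivMSC. Without scivMSC replicate 2, 4 members of the list were also called lower. With all libraries, DESeq2 and either limma fit called 2 lower, and edgeR with the replicate block 1.

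Glucose handling fell in part. Of 15 glycolysis and hypoxia genes, 4 were called lower and 0 higher. Slc2a1, the glucose transporter of proliferating keratinocytes, measured 86.1, 84.8 and 63.4 FPKM in DNCB and 15.6, 33.4 and 12.9 FPKM in scivMSC (log2 fold change -1.93 ± 0.42, adjusted p = 0.0207). Slc16a3, which exports lactate, measured 26.8, 19.3 and 14.8 FPKM and 5.38, 3.71 and 5.75 FPKM (log2 fold change -2.02 ± 0.24, adjusted p = 0.00319), and Hif1a, the oxygen-regulated transcription factor, 40.3, 42.2 and 43.3 FPKM and 15.4, 22.9 and 11 FPKM (log2 fold change -1.36 ± 0.22, adjusted p = 0.00714). For Slc2a1 and Hif1a replicate 2 was the highest treated library. Eno1 fell by 1.25 ± 0.26 on the log2 scale, and the call was lost for Slc2a1 (0.0851) and Eno1 (0.0719) without replicate 1 or 2 of DNCB or 1 or 3 of scivMSC. The count of lowered members was 2 without replicate 1 or 2 of DNCB or 1 or 3 of scivMSC and 4 without replicate 3 of DNCB or 2 of scivMSC.

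Of the gene lists, that of a hair shaft component held the most raised genes. Keratin-associated proteins (Krtap) cross-link hair keratins in the shaft, and are encoded by small genes in dense clusters. Promoters of 3 raised Krtap genes from both main clusters are shown because most genes of the list carry TATAAA close to the start. The 100 bases before each start are from RefSeq on GRCm38.p6, in the direction of transcription, with TATAAA in capitals.
Krtap6-1, chr16:89031599-89031698, plus strand: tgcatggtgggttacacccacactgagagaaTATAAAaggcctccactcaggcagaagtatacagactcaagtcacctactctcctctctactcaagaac
Krtap16-3, chr16:88962874-88962973, minus strand: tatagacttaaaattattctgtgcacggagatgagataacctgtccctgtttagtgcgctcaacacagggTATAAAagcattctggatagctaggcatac
Krtap3-1, chr11:99566631-99566730, minus strand: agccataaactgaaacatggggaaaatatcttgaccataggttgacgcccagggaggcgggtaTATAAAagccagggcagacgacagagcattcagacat
The letters stood in 31 of 38 Krtap promoters of the list (81.6%) and 12 of 17 hair keratin promoters (70.6%), against 23.2% of raised, 15.9% of lowered and 13% of all promoters. Among promoters of tested genes the share was 8.44%. They were not particular to hair genes, with 5 of 7 stress keratinocyte (71.4%), 10 of 18 Sprr and Lce3 (55.6%) and 7 of 13 suprabasal promoters (53.8%). In the sebaceous list it was 0 of 10. Matches describe letters in the window only.

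Of 41 Krtap genes on the list, 34 were called higher and 0 lower, with a median of 4.26. Of the 41, 40 lay wholly above DNCB, against 16.4% of all tested genes. Krtap16-3 measured 0.966, 0.381 and 3.48 FPKM in DNCB and 109.7, 50.6 and 78.6 FPKM in scivMSC (log2 fold change 5.64 ± 0.89, adjusted p = 0.00632). Krtap19-3 measured 1.15, 0.261 and 1.95 FPKM and 84.8, 32.8 and 71.7 FPKM (log2 fold change 5.81 ± 0.91, adjusted p = 0.00632), and Krtap6-1 3.42, 0.538 and 6.33 FPKM and 246, 65.2 and 107 FPKM (log2 fold change 5.35 ± 1.05, adjusted p = 0.0143). Replicate 2 was the lowest treated library in all 3, and DNCB replicate 3 the highest DNCB library. Genes of the Krtap19 group, near-identical copies that can share reads, held 7 of the 15 largest increases of called genes. Krtap19-4 was at the floor in DNCB and measured 36.6, 20.3 and 44.4 FPKM in scivMSC, at least 69.1-fold higher, and Krtap19-9a was at least 51.1-fold higher. Control skin was low too, at 0.0869, 0.337 and 0.0894 FPKM for Krtap16-3. The cluster on chromosome 16 (88610705 to 89571183) held 35 tested genes of which 31 were higher, and that on chromosome 11 (99550130 to 99993994) held 47 of which 32 were higher, with 0 lower in either. The size of the increase did not bring equal certainty. Leaving out 1 library, the count of raised Krtap genes on the list was 5 without replicate 1 of DNCB, 11 without replicate 2 of DNCB or 1 of scivMSC, 16 without replicate 3 of scivMSC, 26 without replicate 3 of DNCB and 33 without replicate 2 of scivMSC.

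Of 22 tested hair and root sheath keratins, 11 were called higher (median 3.50). All 22 lay wholly above DNCB, against 16.4% of all tested genes. With the 6 libraries alone 20 were called, and with a replicate block 3 of the keratins and 14 of the Krtap genes. Krt31, a hair cortex keratin, measured 3.23, 1.67 and 9.22 FPKM in DNCB and 115, 31.5 and 88 FPKM in scivMSC (log2 fold change 4.07 ± 0.89, adjusted p = 0.0217). Krt71, a keratin of the inner root sheath, measured 157, 108 and 332 FPKM and 1991, 842 and 1062 FPKM and did not pass (adjusted p = 0.287), although every treated library was above DNCB. In control skin Krt71 measured 3.31, 116 and 0.486 FPKM, so that 1 control library lay far above the other 2. The count of raised keratins was 0 without replicate 1 or 2 of DNCB or 1 of scivMSC, 3 without replicate 3 of scivMSC, 5 without replicate 3 of DNCB and 11 without replicate 2 of scivMSC, and the call was lost for Krt31 (0.0887) without replicate 1 or 2 of DNCB or 1 or 3 of scivMSC. Regulators of the follicle had a smaller median. Of 22, 8 were higher and 0 lower (median 1.15). Hoxc13, a transcription factor that acts on hair keratin genes, measured 6.14, 4.38 and 6.33 FPKM in DNCB and 30.7, 17.9 and 32.5 FPKM in scivMSC (log2 fold change 2.29 ± 0.41, adjusted p = 0.0101). Gata3 (1.31 ± 0.18), a factor of the inner root sheath, and Bmp2 (2.06 ± 0.39), a signal of hair differentiation, passed in every fit that left out 1 library. Lef1 (2.57 ± 0.56), Dlx3 (2.35 ± 0.48), Msx2 (2.70 ± 0.66), Fgf5 (4.63 ± 1.04) and the dermal papilla protease Corin (1.96 ± 0.41) passed with all libraries, and the call was lost for Lef1 (0.0863) without replicate 1 or 2 of DNCB or 1 or 3 of scivMSC, Dlx3 (0.0717) and Fgf5 (0.0916) without replicate 1 or 2 of DNCB or 1 of scivMSC, Msx2 (0.116) in all fits but the one without replicate 2 of scivMSC and Corin (0.0717) without replicate 1, 2 or 3 of DNCB or 3 of scivMSC. The count was 3 without replicate 1 or 2 of DNCB, 4 without replicate 1 of scivMSC, 5 without replicate 3 of scivMSC, 6 without replicate 3 of DNCB and 8 without replicate 2 of scivMSC. Hair grows in cycles, and the part of the cycle stage of each skin piece in these values was not tested.

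**Figure D3:**
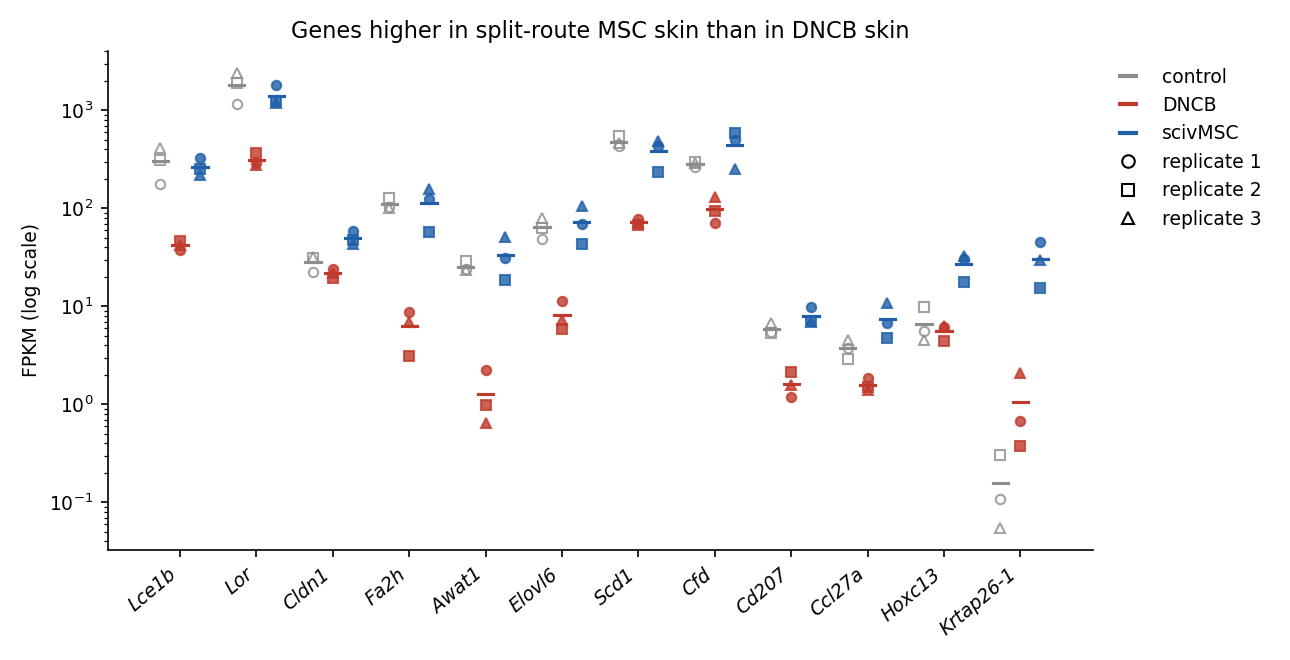
FPKM (log scale) of 12 genes called higher, with 1 point per library, coloured by group and shaped by replicate number, and a line at each group mean; open grey points are control skin. The blue scivMSC points lie above the red DNCB points for each gene, and the control points lie among the scivMSC points for Fa2h, Awat1 and Elovl6 and below all of them for Krtap26-1, Hoxc13 and Cldn1.

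The sebaceous gland makes the oily secretion of the follicle. Of 15 tested gland genes, 9 were called higher and 1 lower (median 2.45), and 8 to 11 were called higher with 1 library left out. Awat1, which forms wax esters, measured 2.22, 0.975 and 0.641 FPKM in DNCB, 31, 18.7 and 50.7 FPKM in scivMSC and 24.1, 28.9 and 23.6 FPKM in control skin (log2 fold change 4.74 ± 0.57, adjusted p = 0.00319). Fa2h, which hydroxylates fatty acids, measured 8.83, 3.11 and 6.84 FPKM, 124, 56.8 and 156 FPKM and 103, 128 and 99.8 FPKM (log2 fold change 4.19 ± 0.51, adjusted p = 0.00319). Scd1, the fatty acid desaturase of sebocytes, measured 77.5, 67.4 and 70.6 FPKM, 431, 237 and 488 FPKM and 429.7, 543 and 467 FPKM (log2 fold change 2.45 ± 0.30, adjusted p = 0.00324). In each gene all treated libraries stood above DNCB, replicate 3 was the highest and replicate 2 the lowest, and the treated range spanned or overlapped the control range. The fatty alcohol enzyme Far2 (3.83 ± 0.52), Awat2 (3.30 ± 0.49), the elongase Elovl3 (3.60 ± 0.55), the lipid droplet protein Cidea (2.89 ± 0.44) and the melanocortin receptor Mc5r (2.26 ± 0.30) passed without any 1 library. Dgat2l6 did in all but 1 such fit (Dgat2l6 (0.0511) without replicate 3 of DNCB). The lowered member, Sec14l3, was near the floor throughout, at 0.159, 0.0643 and 0.362 FPKM in DNCB and 0 in scivMSC, at least 3.54-fold lower, and the call was lost for Sec14l3 (0.119) without any 1 library. Summed over the list, the level was 237 to 274 FPKM in DNCB, 976, 607 and 1287 FPKM in scivMSC and 872 to 1088 FPKM in control skin.

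Several of the 15 largest increases, taken by the same rule as the 15 decreases above, lay outside the Krtap family. Serpinb6e, a protease inhibitor of the serpin family, was listed at 0 in all 3 DNCB libraries and measured 2.94, 1.36 and 4.36 FPKM in scivMSC and 2.38, 1.71 and 1.44 FPKM in control skin, at least 29.2-fold higher than DNCB. The esterase-like gene Aadacl4fm4 was also at 0 in DNCB and measured 1.6, 0.448 and 5.58 FPKM in scivMSC, at least 21.5-fold higher. Serpina3b measured 1.18, 0.505 and 0.518 FPKM in DNCB, 26.9, 8.93 and 59.4 FPKM in scivMSC and 32, 24.5 and 16.6 FPKM in control skin (log2 fold change 5.48 ± 0.86, adjusted p = 0.00643). Treated replicate 2 was the lowest each time, and the control libraries lay within or close to the treated range. Aadacl3 (5.45 ± 1.26), the cytochrome Cyp2j12 (5.88 ± 1.19) and Rnase12, at least 10.4-fold higher, were the other genes of the 15 outside the Krtap family. These families have close copies that can share reads, and the call was lost for Aadacl3 (0.0931) without replicate 1 or 2 of DNCB or 1 or 3 of scivMSC, Cyp2j12 (0.0668) without replicate 2 of DNCB and Rnase12 (0.0602) without replicate 2 or 3 of DNCB or 1 of scivMSC.

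Lipid synthesis genes were higher in part, on lists that share members with the gland list. Of 19 epidermal lipid genes, 6 were higher (Elovl3 among them) and 1 lower, and of 20 sterol and fatty acid genes 5 were higher (Scd1 among them) and 0 lower. Elovl4, which makes the very long acyl chains of barrier ceramides, measured 94.4, 94.4 and 76.5 FPKM in DNCB and 340.0, 232 and 499 FPKM in scivMSC (log2 fold change 2.04 ± 0.33, adjusted p = 0.00705). Cers4, a ceramide synthase, measured 2.88, 2.2 and 2.69 FPKM and 17.7, 9.79 and 35.4 FPKM (log2 fold change 3.05 ± 0.43, adjusted p = 0.0048). Treated replicate 3 was the highest and replicate 2 the lowest. Elovl5 (1.23 ± 0.24), Elovl6 (3.17 ± 0.42) and the lipoxygenase Aloxe3 (1.72 ± 0.30) were higher, and the sphingomyelin synthase Sgms2 lower (-1.29 ± 0.21). Acacb, an acetyl-CoA carboxylase of fatty acid metabolism, measured 6.69, 6.3 and 7.35 FPKM in DNCB and 22.4, 17.3 and 29.8 FPKM in scivMSC (log2 fold change 1.79 ± 0.26, adjusted p = 0.00482). Cyp51, of sterol synthesis, rose as well (1.02 ± 0.26), while the master regulators Srebf1 and Srebf2 did not pass (adjusted p = 0.711 and 0.402). The call was lost for Elovl5 (0.0627) without replicate 1 or 2 of DNCB and Cyp51 (0.133) in all fits but the one without replicate 2 of scivMSC. The count of raised sterol genes was 3 without replicate 2 of DNCB, 4 without replicate 1 or 3 of DNCB or 1 or 3 of scivMSC and 6 without replicate 2 of scivMSC.

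Markers of other cells of the skin gave few calls. Of 12 adipocyte genes, 3 were called higher and 1 lower (median 0.87). In this list 9 genes lay wholly above DNCB and 1 wholly below, against 16.4% and 16.3% of all tested genes. Cfd, the adipocyte protease adipsin, measured 71.6, 93.4 and 131 FPKM in DNCB and 504, 589 and 252 FPKM in scivMSC (log2 fold change 2.17 ± 0.35, adjusted p = 0.00705), and the fat droplet protein Cidec (1.65 ± 0.34) and Retn (1.60 ± 0.35) were higher while the satiety hormone Lep was lower (-2.39 ± 0.56). Of 12 adipocyte genes the count of raised members was 1 without replicate 1 or 2 of DNCB or 1 of scivMSC, 3 without replicate 2 or 3 of scivMSC and 4 without replicate 3 of DNCB, that of lowered members was 0 without replicate 2 or 3 of DNCB or 1 or 2 of scivMSC and 1 without replicate 1 of DNCB or 3 of scivMSC, and the call was lost for Cidec (0.0733) and Retn (0.0729) without replicate 1 or 2 of DNCB or 1 of scivMSC and Lep (0.109) without replicate 2 or 3 of DNCB or 1 or 2 of scivMSC. Cd207, the langerin of Langerhans cells, measured 1.18, 2.12 and 1.58 FPKM in DNCB and 9.8, 7.11 and 6.9 FPKM in scivMSC (log2 fold change 2.29 ± 0.41, adjusted p = 0.0102), with all treated libraries higher and 5.53, 5.39 and 6.84 FPKM in control skin. It was the 1 gene called of 15. Tyrp1, a pigment enzyme, was the 1 called of 7 melanocyte genes (1.11 ± 0.26), and the call was lost for Tyrp1 (0.11) in all fits but the one without replicate 3 of scivMSC. Ifitm1, an interferon-induced membrane protein, was the 1 called of 20 interferon-stimulated genes (-2.67 ± 0.29). Of these 20, 11 lay wholly below DNCB and 0 wholly above.

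By edgeR with all libraries, 0 members were called among 13 T cell and NK cell genes (median -0.22), 16 skeletal muscle genes (median 0.57), 6 red blood cell genes (median -0.19) and 18 proliferation genes (median -0.59). An unadjusted p under 0.05 was reached by 1, 2, 0 and 3 members in that order. DESeq2 called 1 muscle gene higher and 1 proliferation gene lower and 0 of the other two lists, and edgeR called 1 muscle gene higher without scivMSC replicate 2, with counts divided by 4 or with a mean of at least 1 FPKM. With 1 library left out, the median was -0.49 to -0.12 for T cell genes, 0.13 to 0.76 for muscle genes (lowest without scivMSC replicate 3) and -0.68 to 0.50 for red blood cell genes, which changed sign without DNCB replicate 3 or scivMSC replicate 3 (0.15). The T cell genes were low throughout, at a summed level of 6.2 to 6.65 FPKM in DNCB and 5.04 to 5.87 FPKM in scivMSC. Whether that level limited the detection of differences was not tested. Mki67, a marker of dividing cells, measured 23.5, 16.1 and 19.6 FPKM in DNCB and 10.6, 16 and 16.2 FPKM in scivMSC, with overlap. Of the 18 proliferation genes, 11 had every scivMSC library below every DNCB library and 0 had every one above. The share below was 16.3% over all tested genes. With 1 library left out, the median of the proliferation genes was -0.72 to -0.38.

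The 3 treated libraries lay at different distances from DNCB skin. For each list, the mean log2 difference of each library from the DNCB mean shows the order. For neutrophil genes it was -5.02, -3.34 and -4.77 in scivMSC replicates 1, 2 and 3, for Sprr and Lce3 genes -3.99, -0.99 and -3.23, and for sebaceous genes 1.99, 1.55 and 2.54. Krtap genes gave 5.46, 3.95 and 4.70. Replicate 2 was nearest to DNCB in all 4. For fibroblast genes the values were -1.31, -0.99 and -3.25 and for macrophage genes -1.41, -1.02 and -3.48, with replicate 3 farthest. Over all called genes, replicate 2 was the treated library nearest to the DNCB mean for 533 of the 686 raised and 375 of the 509 lowered genes. The median difference of raised genes was 2.26, 1.66 and 2.17 in replicates 1, 2 and 3, and of lowered genes -1.82, -1.44 and -2.41. Part of this order is set by the calls themselves, which used these libraries. Across all tested genes, the median SD of log2 CPM (counts scaled to library size) was 0.339 among scivMSC libraries, 0.227 among DNCB, 0.328 among control and 0.352 among scMSC libraries.

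**Figure D4:**
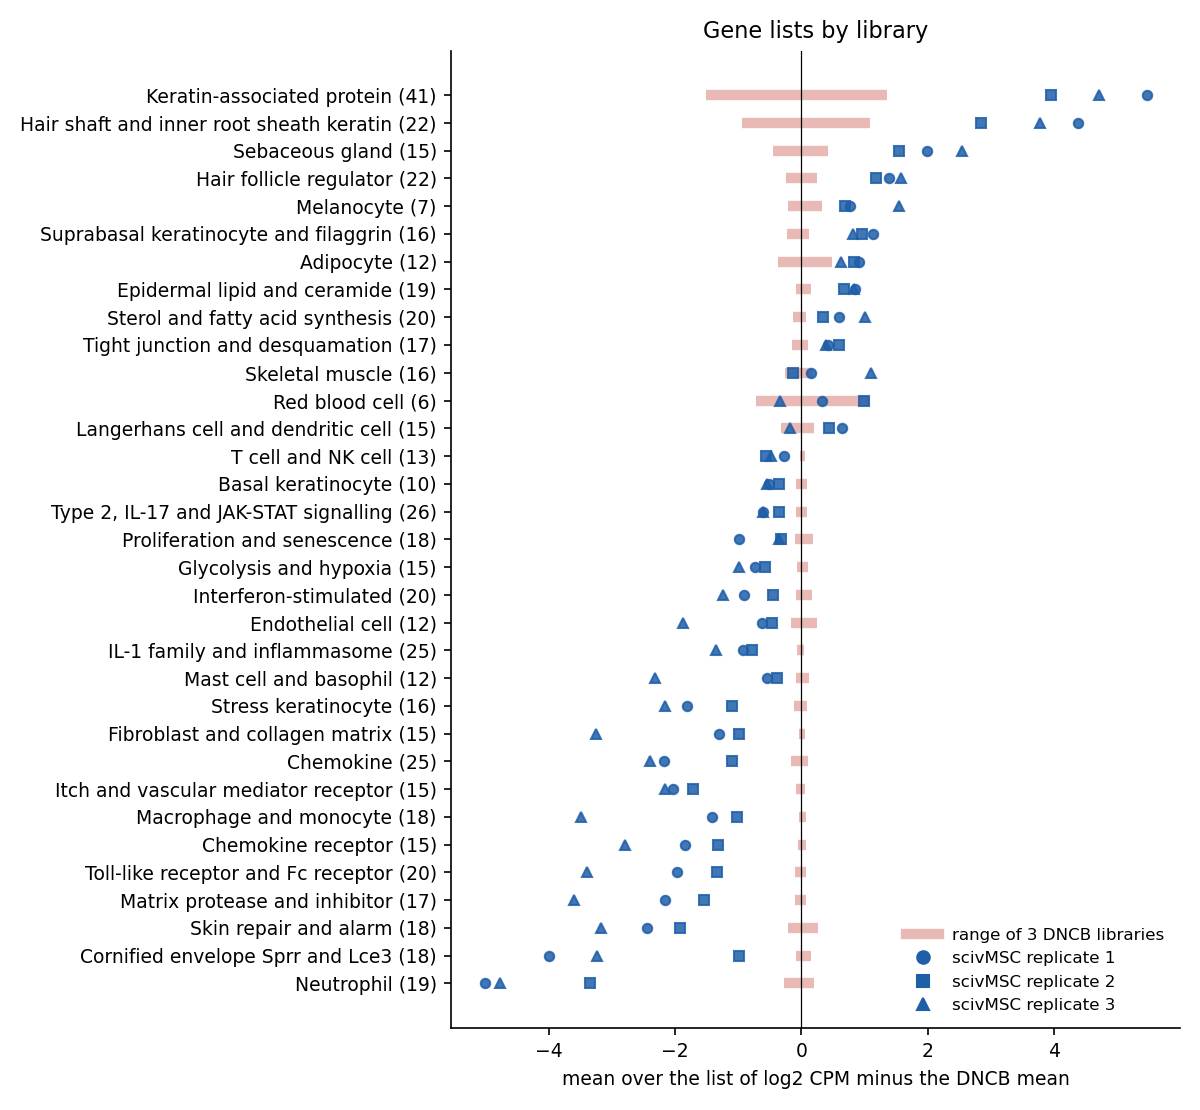
Mean log2 difference from the DNCB mean (horizontal axis) for each gene list (rows), with 1 point per scivMSC library shaped by replicate number and a bar over the range of the 3 DNCB libraries. The Krtap and hair keratin rows lie far to the right and the neutrophil row far to the left in all 3 scivMSC libraries, while replicate 2 lies nearest to 0 for the neutrophil, Sprr and Lce3, sebaceous and Krtap rows.

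**Figure D5:**
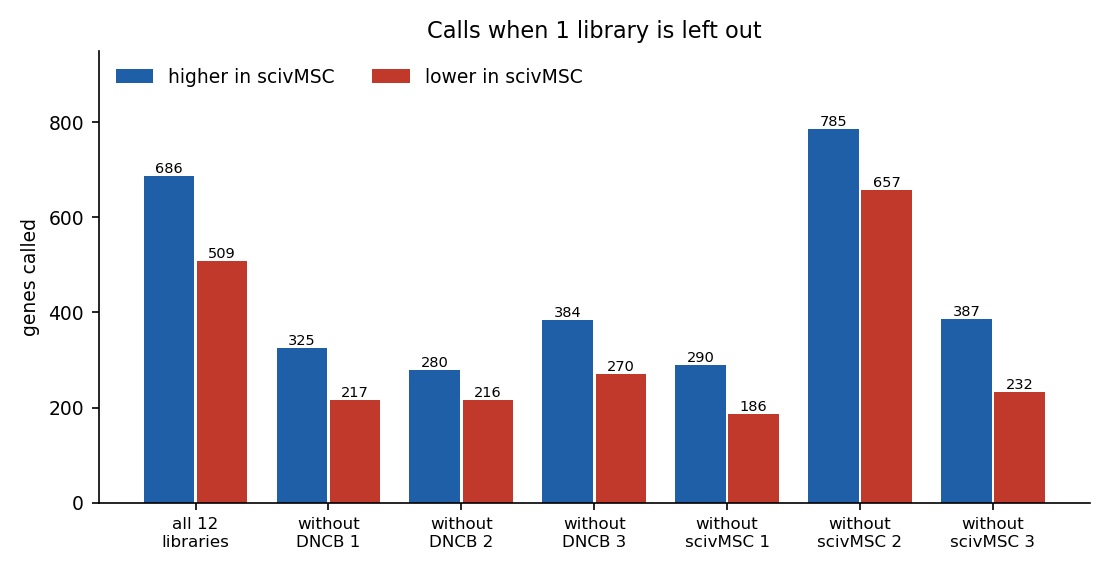
Number of genes called higher and lower (vertical axis, counts) with all libraries and with each of the 6 libraries left out (horizontal axis). The counts fall from 686 and 509 to between 280 and 387 and between 186 and 270 when any library but scivMSC replicate 2 is left out, and rise to 785 and 657 without that replicate.

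Set against control skin in the same fit, scivMSC skin was not at the vehicle level for all genes. In that comparison 766 genes (3.50%) were higher and 734 (3.35%) lower, 1500 in all. That total was 845 without control replicate 1, 964 without scivMSC replicate 1 and 843 without scivMSC replicate 2. Krtap and hair keratin genes were above control, 41 of 41 and 17 of 22, while 0 of the 15 sebaceous genes were higher and 1 was lower. Of 18 proliferation genes 15 were higher than control. Against scMSC, the group with the whole dose under the skin, 1 of 21890 genes was called (0.00457%), Ccdc50, which did not pass against DNCB (log2 fold change -0.02 ± 0.18, adjusted p = 0.967). The count was 2 without scMSC replicate 2 or scivMSC replicate 2 and 5 without scMSC replicate 3, and 1642 genes had an unadjusted p under 0.05. The neutrophil and Krtap lists each had 0 genes called between the 2 routes. These comparisons share the scivMSC libraries with the one above, so their values are given side by side only.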

How the data were processed

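RNA-seq of dorsal skin was deposited for 12 libraries in 4 groups of 3. Per the submitters' processing notes, HISAT2 2.0, StringTie 1.3.0 and Bowtie 0.12.2 were used, with the build named as mm8. Gene coordinates in the table matched GRCm38, since 36285 of 36400 gene IDs overlapped the GENCODE M21 span of the same ID. For each library the authors deposited estimated counts per gene, as whole numbers, and FPKM. Between 38.95% and 41.25% of the counts from 1 to 18 in a library divided by 4, so 1 fragment was taken as 4 counts where a floor was needed (3 fragments, 12 counts). Total estimated counts were 63877153 to 75134001 per library. These totals, and the floor, cover counting error only. The strand setting of the counting is not given in the sources used here. There were 65 duplicated symbols.

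The 21890 genes whose mean FPKM reached 0.1 in the series were tested on the counts with edgeR 4.0.16 in R 4.3.3 (TMM, glmQLFit and glmQLFTest, 4 groups in 1 model, 8 residual degrees of freedom, common biological coefficient of variation 0.42), after the code was tested on simulated data. For choosing genes, the study's methods state a fold and a p threshold. Calls needed an adjusted p (Benjamini-Hochberg) under 0.05 and a log2 fold change above 1 or below -1. Standard errors are the absolute log2 fold change divided by the square root of F. Where every library of a group was at or under the floor, the fold is a bound against the floor. Libraries are labelled as replicates. The p-values set each group difference against a spread between libraries that was fitted over all 4 groups and shared across genes.

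Named genes are the 15 largest changes per direction among called genes (mean of at least 1 FPKM, no overlap, no predicted gene names), the genes the study names as measured in skin RNA, members of the gene lists, and genes called between scivMSC and scMSC. Members and lists were chosen with earlier results of these data known. The Lce1 family and the genes of the closing observations were chosen after their values were seen. Listed genes not in the table were not used. Alternatives were DESeq2 1.42.0, RLE size factors, counts divided by 4, limma 3.58.1 on log2(FPKM + 0.1) and log2(FPKM + 1), other filters, the 6 libraries alone, a replicate block and each library left out. Same-numbered libraries were checked for pairing, and their deviations from group means correlated at -0.185 to 0.133, so the numbers were not treated as pairs. Promoters are from RefSeq on GRCm38.p6 (27025 genes). Motifs were searched on both strands from 250 bases before the start. Blood samples were not analysed here, and some genes counted in the lists are not reported here by name.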

Additional observations from a re-analysis of the deposited data

Results flagged for a closer look

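Ccdc50 differed between the routes. Its change against DNCB was 2.72 higher on the log2 scale in scivMSC than in scMSC, by edgeR's test of scivMSC against scMSC across all genes. It measured 10.4, 10.2 and 6.55 FPKM in the 3 scivMSC libraries, 1.34, 1.11 and 1.61 FPKM in scMSC, 9.24, 8.84 and 9.43 FPKM in DNCB and 7.13, 9.63 and 10.5 FPKM in control skin. The scMSC libraries lay below all others, and the other 3 groups overlapped. Groups of 3 were not searched for single outlying libraries.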

How the results depend on the processing

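Counts of genes higher and lower in scivMSC than in DNCB kept within 1.5 times of 686 and 509 under RLE size factors, counts divided by 4, both limma fits, both filters and the 6 libraries alone. DESeq2 called 1002 and 881, and adjusted p alone 999 and 788. Leaving out 1 library gave 280 to 785 higher and 186 to 657 lower. With the replicate block, 466 and 379 were called, and the same-numbered libraries gave no sign of pairing. Between scivMSC and scMSC, 115 genes were called by DESeq2, 2 by limma on log2(FPKM + 0.1), 3 with the 6 libraries alone, 1 with the replicate block and 1 to 5 with 1 library left out. Between scivMSC and control, 795 were called with the 6 libraries alone, 2899 by adjusted p alone, 1344 with the replicate block and 843 to 1798 with 1 library left out. Among the gene lists, DESeq2 called over 1.5 times the edgeR count of lowered members for stress keratinocyte (7), interleukin-1 (9), chemokine (10), Toll-like and Fc receptor (12), itch (7), mast cell (2), epidermal lipid (2), tight junction (2) and matrix protease genes (10), and of raised suprabasal genes (6), beside the macrophage and fibroblast lists above. Limma on log2(FPKM + 1) called 11 Sprr and Lce3 genes, 7 stress keratinocyte genes, 6 itch genes and 2 mast cell genes lower and 17 hair keratins higher, and on log2(FPKM + 0.1) 8 stress and 5 itch genes lower. Lowered stress keratinocyte genes numbered 5 with counts divided by 4 or a mean of at least 1 FPKM and 1 with no filter. With the 6 libraries alone, 5 suprabasal genes were raised and 1 endothelial gene lowered, and with the replicate block 3 Sprr and Lce3, 3 interleukin-1 and 1 stress genes were lowered. Raised itch genes numbered 1 by either limma fit, with no filter or with the 6 libraries alone, and 0 with the block. The causes of these differences were not tested. Of 227 genes compared, 181 passed adjusted p 0.05, and 99 of these passed in all 6 fits that left out 1 library. Over 3393 gene and setting pairs, 409 fell short of the threshold (331 of them with 1 library left out), 75 newly passed and 1 changed sign. That was Ccdc50 against DNCB, at -0.02 with all libraries and 0.15 without scivMSC replicate 3, within a range of -0.12 to 0.15. Whether a low level limited detection, for genes near the floor or lists as low as the T cell genes, was not tested.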

Other observations

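Genes outside the lists, chosen after their values were seen, rose beside the sebaceous genes. Hsd3b6, a steroid dehydrogenase, measured 0.95, 0.353 and 0.418 FPKM in DNCB and 10.6, 7.19 and 24.5 FPKM in scivMSC (log2 fold change 4.65 ± 0.57, adjusted p = 0.00321). Cyp1a1, which oxidizes foreign compounds, measured 0.734, 0.297 and 0.6 FPKM and 9.59, 4.75 and 15.8 FPKM (log2 fold change 4.24 ± 0.48, adjusted p = 0.00284). Replicate 3 was the highest and replicate 2 the lowest treated library for both, and all were above DNCB. The lipase-family gene Pnpla5 (4.59 ± 0.60), the steroid enzymes Cyp17a1 (2.31 ± 0.41) and Hsd17b14 (2.89 ± 0.54), Serpina3j (5.11 ± 0.81) and Aadacl4 (4.00 ± 0.50) were also higher. Of 12 tested Serpina3 genes, 2 were called higher (Serpina3b and Serpina3j) and 1 lower, with a median of -0.15. Among genes of keratinocytes and skin immunity, Slurp1 (3.08 ± 0.42) and Slurp2 (3.33 ± 0.47), secreted epidermal proteins, rose with Krt23 (3.04 ± 0.41), Rarres1 (3.48 ± 0.47) and the signalling scaffold Card14 (1.77 ± 0.26).

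Others chosen in the same way were lower. Srgn, the granule proteoglycan of leukocytes, measured 135, 132 and 81.7 FPKM in DNCB and 6.34, 11.4 and 5.87 FPKM in scivMSC (log2 fold change -3.89 ± 0.36, adjusted p = 0.00118). The leukocyte genes Cd53 (-3.27 ± 0.56) and Lcp1 (-2.57 ± 0.45) and the cytokine Tnf (-3.98 ± 0.74) moved with it. Col12a1, a fibril-associated collagen, measured 46.9, 47.7 and 39.9 FPKM and 4.23, 6.47 and 2.35 FPKM (log2 fold change -3.38 ± 0.33, adjusted p = 0.00148). For Srgn and Col12a1 the 3 treated libraries lay far below DNCB, replicate 3 lowest. The matrix proteoglycan Bgn (-1.89 ± 0.27), the retinoic acid binding protein Crabp1 (-2.78 ± 0.46) and G0s2 (-3.15 ± 0.39), an inhibitor of fat breakdown, were lower too. All genes named in these paragraphs passed in every fit that left out 1 library.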
